A study of Mus musculus with 6 samples.

Results

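Coenzyme Q (ubiquinone) synthesis was followed in brown adipose tissue through the transcripts of 10 genes: Pdss1, Pdss2, Coq2, Coq3, Coq4, Coq5, Coq6, Coq7, Coq9 and Coq10b. They were taken by symbol from a table of read counts for 24062 gene symbols, in which all 10 were found, and all 10 passed the filter on low counts that left 13300 genes for testing. The tissue came from male C57BL/6 mice of 12 weeks, 3 labelled FAM195A heterozygous and 3 labelled FAM195A Knock out, with 1 library per mouse. FAM195A is the stress granule protein that the series links to heat production in the cold. No group without a disrupted copy was analysed here, and the sources used here do not describe the allele, any promoter that drives its loss, or the housing temperature. The heterozygous libraries are titled RF1, RF3 and RE6 and the knockout libraries RF2, RF4 and RE9. In that order they are called heterozygous 1 to 3 and knockout 1 to 3, and what the prefixes RF and RE stand for is not stated.

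Ubiquinone is a lipid with a redox-active ring that moves freely in the inner mitochondrial membrane. It takes electrons from complex I, from succinate dehydrogenase and from the dehydrogenases of fatty acid, glycerol phosphate, choline and sulfide oxidation, and hands them to complex III. Brown fat, packed with mitochondria that burn fatty acids, depends on it for heat production. Its isoprenoid tail comes from the mevalonate pathway, its ring from tyrosine, and the ring is hydroxylated and methylated by enzymes that assemble on the matrix side of that membrane.

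Between 18781401 and 25084627 reads per library were counted in genes. The targeted gene does not bear out the labels: Fam195a stood at 69.0, 70.5 and 103 CPM (reads per 1000000 of the scaled library size) in heterozygous 1 to 3 and at 50.5, 82.0 and 81.3 CPM in knockout 1 to 3 (log2 fold change -0.18, edgeR adjusted p = 0.896). Each direction below is therefore that of the libraries labelled knockout against those labelled heterozygous. All 12 brown adipocyte markers had reads in every library. Their summed level ran from 7782 to 10621.5 CPM in the heterozygous-labelled libraries and from 7712 to 12492 CPM in the knockout-labelled ones. Of the 12, 8 had a log2 fold change below 0, against 46.9% of all genes tested. By edgeR 1 of the 12 passed (adjusted p below 0.05), where 0.534% of all genes tested were called lower and 0.0526% higher. The median log2 fold change of the 12 was -0.13. Ucp1 was not the one that passed (log2 fold change -0.16, edgeR adjusted p = 0.958). It lay between 2963 and 5290 CPM and between 1647 and 5693 CPM in the respective groups. Skeletal muscle transcripts, 26 of 26, were present too; their summed level was 12116, 27534 and 35639 CPM in heterozygous 1 to 3 and 7522, 4405 and 4244 CPM in knockout 1 to 3, without overlap. The summed macrophage markers (6 of 7 symbols in the table) ran from 65.1 to 174 CPM and from 95.7 to 180 CPM in the respective groups, the 7 endothelial ones from 556 to 694 and from 650 to 655, and the 8 white adipocyte ones from 93.9 to 256 and from 104 to 455. The 4 globin genes Hba-a1, Hba-a2, Hbb-bs and Hbb-bt are listed at 0 in all libraries. Alas2, the remaining red blood cell marker, had reads in every library. It ran from 7.81 to 16.6 CPM in the heterozygous-labelled libraries and from 14.6 to 19.8 CPM in the knockout-labelled ones (log2 fold change 0.58, not called). In tissue of mixed cells, fewer cells of a type and less RNA per cell cannot be told apart.

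Of the 10 genes, 3 fell in the knockout-labelled libraries and none rose: Pdss2, a subunit of the enzyme that builds the tail, Coq3, which adds methyl groups to ring oxygens, and Coq6, a flavin-dependent ring hydroxylase. Over all 13300 genes tested, 0.534% were called lower and 0.0526% higher (quasi-likelihood test of edgeR, p adjusted by Benjamini-Hochberg and below 0.05). All 3 calls were lost when heterozygous 2, heterozygous 3, knockout 1 or knockout 2 was left out, with log2 fold changes of -1.34 to -1.23 for Pdss2, -1.24 to -1.05 for Coq3 and -1.09 to -0.86 for Coq6 and edgeR adjusted p of 0.0936 to 0.209. In those fits 0 to 8 of all tested genes passed, and 1232 to 1450 of them, with 7 or 8 of the 10, had an unadjusted p below 0.05. The log2 fold change was below 0 in 9 of the 10, Coq7 being the exception, against 46.9% of all genes tested. In 8 of the 10 every knockout-labelled library lay below every heterozygous-labelled one, against 9.89% of all genes tested; Coq7 and Coq10b overlapped. None of the 10 lay wholly above, against 8.11% of all genes tested. The median log2 fold change of the 10 was -0.58, beside 0.02 for all genes tested. The 10 were chosen with earlier results of these data known, so these shares and medians are a description and no test. Among RF titles alone (2 libraries against 2) the median was -0.61; the RE pair, with 1 library on each side and so without a test, gave -0.73. The fit among RF titles called 3 of the 10 lower and none higher, with 0.850% of its 13287 genes called lower and 0.143% higher.

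**Figure D1:**
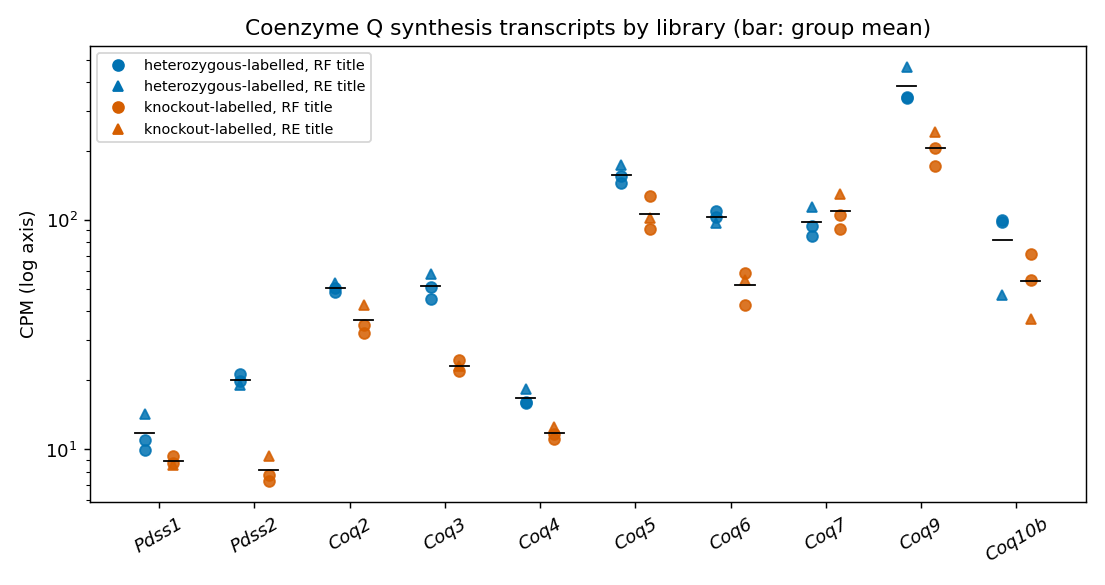
CPM of the 10 coenzyme Q synthesis genes in each of the 6 libraries, on a log axis, with circles for RF-titled and triangles for RE-titled libraries and a bar at each group mean. The knockout-labelled libraries lie below all heterozygous-labelled ones in 8 genes, and the groups overlap for Coq7 and Coq10b.

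The tail is made by a complex of the Pdss1 and Pdss2 proteins, which strings isoprene units into a polyprenyl chain. Pdss2 lies on the plus strand of chromosome 10 from 43221486 to 43464882 (GRCm38). Its level was 21.3, 19.9 and 19.1 CPM in heterozygous 1 to 3 and 7.75, 7.26 and 9.37 CPM in knockout 1 to 3. All 3 knockout-labelled libraries were thus below the lowest of the others, from a mean of 20.1 ± 1.15 to 8.13 ± 1.10 CPM (SD, n = 3 each). The log2 fold change was -1.31 (SE 0.161, 95% interval -1.68 to -0.931, edgeR adjusted p = 0.0259), or 40.4% of the heterozygous-labelled level. Among RF titles alone it was -1.46 (edgeR adjusted p = 0.0186), and the RE pair gave -0.99. Depth was modest, with 173 to 413 reads per library.

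Pdss1 (chromosome 2, 22895522 to 22940266, plus strand) did not pass. It stood at 11.04, 9.98 and 14.3 CPM in heterozygous 1 to 3 and at 8.69, 9.36 and 8.58 CPM in knockout 1 to 3, from 186 to 309 reads. The ranges did not overlap, but the gap between knockout 2 and heterozygous 2 was small (log2 fold change -0.41, SE 0.186, 95% interval -0.84 to 0.0288, edgeR adjusted p = 0.465). Among RF titles alone it was -0.22, and the RE pair gave -0.70.

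Ring chemistry starts with Coq2, which joins the tail to 4-hydroxybenzoate in the membrane. Coq2 (chromosome 5, 100654723 to 100675140, minus strand) stood at 48.5, 50.3 and 52.9 CPM in heterozygous 1 to 3 and at 35.0, 32.1 and 42.6 CPM in knockout 1 to 3. The groups did not overlap and the heterozygous-labelled libraries were close together, but the difference did not pass (log2 -0.47, SE 0.142, edgeR adjusted p = 0.202).

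Coq6, on the plus strand of chromosome 12 from 84361657 to 84373796, hydroxylates the ring with electrons that reach it through ferredoxin and ferredoxin reductase. It stood at 103, 110 and 97.2 CPM in heterozygous 1 to 3 and at 42.7, 59.0 and 54.5 CPM in knockout 1 to 3. The knockout-labelled libraries held about 50.4% of the other group's level, and the gap between the groups exceeded the range within either (means 103 ± 6.29 and 52.1 ± 8.41 CPM, SD, n = 3 each). The log2 fold change was -0.99 (SE 0.151, edgeR adjusted p = 0.0475) (-1.07 among RF titles, -0.83 in the RE pair). Of the 3 calls this one was nearest the threshold: it passed without heterozygous 1 (edgeR adjusted p = 0.0457) and did not pass without any other single library (edgeR adjusted p from 0.0574 without knockout 3 to 0.209 without heterozygous 2).

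Methyl groups are added by Coq3 to ring oxygens and by Coq5 to a ring carbon. Coq3 (chromosome 4, 21879673 to 21912162, plus strand) stood at 51.1, 45.1 and 58.4 CPM in heterozygous 1 to 3 and at 22.0, 24.4 and 23.1 CPM in knockout 1 to 3. The knockout-labelled libraries were tightly grouped and well under the lowest heterozygous-labelled one (means 51.5 ± 6.66 and 23.2 ± 1.24 CPM, SD, n = 3 each). Its log2 fold change was -1.15 (SE 0.141, edgeR adjusted p = 0.0259) (-1.05 among RF titles, -1.32 in the RE pair).

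Coq5 (chromosome 5, 115279666 to 115296972, plus strand) stood at 155, 145 and 173 CPM in heterozygous 1 to 3 and at 91.4, 127 and 102 CPM in knockout 1 to 3. Its groups did not overlap either, with knockout 2 the nearest to the others, and it did not pass (log2 -0.56, SE 0.159, edgeR adjusted p = 0.163). Coq4, known for organising the synthesis complex (chromosome 2, 29787493 to 29797935, plus strand), was at 16.1, 15.9 and 18.3 CPM in heterozygous 1 to 3 and at 11.1, 11.7 and 12.5 CPM in knockout 1 to 3. It was lower in every knockout-labelled library but did not pass (log2 -0.51, SE 0.145, edgeR adjusted p = 0.163).

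A late ring hydroxylation is carried out by Coq7, a di-iron enzyme, together with Coq9, a lipid-binding protein that presents the substrate to it. Coq9 (chromosome 8, 94838321 to 94854895, plus strand) was at 339, 345 and 466 CPM in heterozygous 1 to 3 and at 173, 207 and 241 CPM in knockout 1 to 3. Here the RE-titled library was the highest in each group, and the groups did not overlap (means 383 ± 71.3 and 207 ± 34.1 CPM, SD, n = 3 each). The log2 fold change of -0.89 (SE 0.19, 95% interval -1.34 to -0.447) missed the threshold by edgeR (adjusted p = 0.0793). It passed by DESeq2 (adjusted p = 0.00141), by limma-voom with quality weights (adjusted p = 0.0393) and with the title prefix as a covariate in edgeR (adjusted p = 0.0125), so that each of those 3 fits called 4 of the 10 lower. They called 4.44%, 1.24% and 1.83% of all their tested genes lower and 0.815%, 0.218% and 0.504% higher, none of the 10 among the latter. Coq9 did not pass among RF titles alone (edgeR adjusted p = 0.0593) or in any fit with 1 library left out (edgeR adjusted p from 0.0819 to 0.278).

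Coq7 (chromosome 7, 118509659 to 118533356, minus strand) alone had a fold change above 0. Its level was 93.9, 85.05 and 114 CPM in heterozygous 1 to 3 and 91.8, 106 and 129 CPM in knockout 1 to 3. The groups overlapped and the difference did not pass (log2 0.16, SE 0.175, edgeR adjusted p = 0.866). The 95% interval of -0.252 to 0.566 takes in levels from a modest decrease to a moderate increase.

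Coq10b encodes a lipid-binding protein that is needed for ubiquinone to work in respiration rather than for a step of its synthesis. Coq10b (chromosome 1, 55052770 to 55072702, plus strand) stood at 100.3, 97.7 and 47.0 CPM in heterozygous 1 to 3 and at 54.9, 71.0 and 36.9 CPM in knockout 1 to 3. The RE-titled library was the lowest of each group, which made the groups overlap (log2 -0.59, SE 0.341, edgeR adjusted p = 0.625). Among RF titles alone the log2 fold change was -0.66 (edgeR adjusted p = 0.152), without overlap, and the RE pair gave -0.35.

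Partner genes can be compared inside each library by the ratio of their reads, which does not depend on how the libraries are scaled. Ratios were taken for 5 pairs, chosen after the levels had been seen. The ratio of Coq7 to Coq9 reads was 0.277, 0.246 and 0.245 in heterozygous 1 to 3 and 0.532, 0.511 and 0.537 in knockout 1 to 3. It was 2.06-fold higher in the knockout-labelled libraries, and the gap between the groups was wider than the range within either. With 3 libraries on each side a two-sided exact permutation test cannot go below the p = 0.1 found here (adjusted over the 5 pairs, p = 0.167). The log2 difference was 0.998 among RF titles and 1.13 in the RE pair.

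The ratio of Pdss2 to Pdss1 reads went the other way, from 1.93, 1.99 and 1.34 in heterozygous 1 to 3 to 0.892, 0.775 and 1.09 in knockout 1 to 3, without overlap (exact permutation p = 0.1; adjusted p = 0.167). Its log2 difference of -0.92 was -1.24 among RF titles and -0.29 in the RE pair, so it was mostly in the former. The ratio of Coq5 to Coq3 reads was 3.03, 3.22 and 2.97 in heterozygous 1 to 3 and 4.16, 5.19 and 4.41 in knockout 1 to 3, again without overlap (exact permutation p = 0.1; adjusted p = 0.167). For Coq10b against its paralog Coq10a, and for the paralogs Coq8b and Coq8a, the groups overlapped (exact permutation p = 0.6 for each; adjusted p = 0.6).

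**Figure D2:**
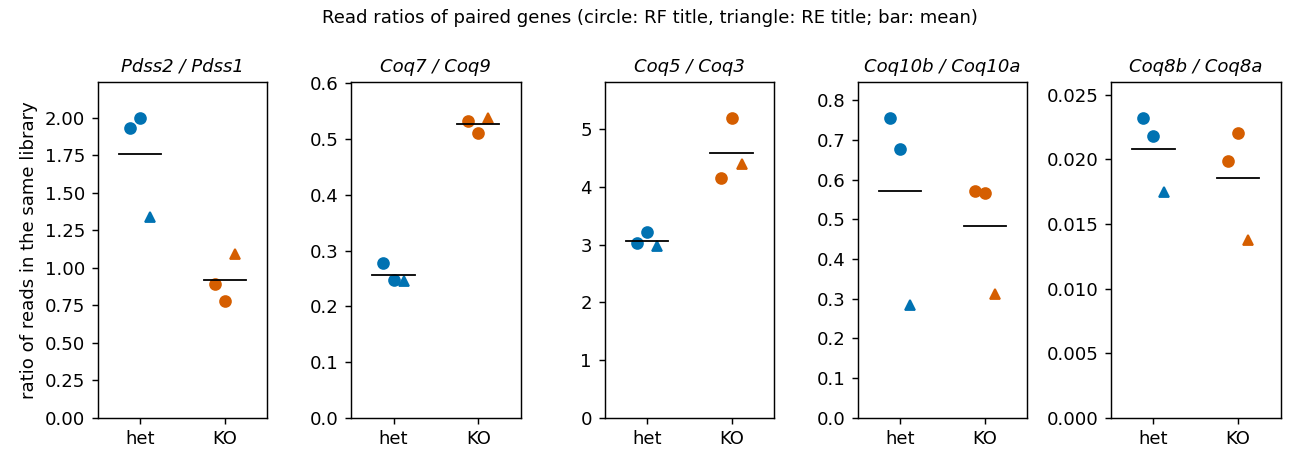
Ratio of the reads of paired genes within each library (y axes from 0), for the heterozygous-labelled (het) and knockout-labelled (KO) libraries, with bars at the group means. For Coq7 over Coq9 the groups form tight clusters around 0.256 and 0.527, while Coq10b over Coq10a and Coq8b over Coq8a overlap.

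Levels of different genes were set side by side per length, as CPM per kilobase of annotated exon. Coq9 was the highest of the 10 at 126 ± 23.3 CPM per kilobase in the heterozygous-labelled libraries (SD, n = 3), followed by Coq5 at 52.0 ± 4.76 and Coq6 at 32.9 ± 2.002. These 3 did not overlap with each other or with any gene below. Next came Coq2 at 19.3 ± 0.85, Coq3 at 17.2 ± 2.22, Coq10b at 17.0 ± 6.26 and Coq7 at 15.2 ± 2.32, each overlapping its neighbour in this order. Coq4, at 4.93 ± 0.396, and the tail subunits Pdss2, at 3.37 ± 0.193, and Pdss1, at 2.77 ± 0.524, were lowest, and the tail subunits overlapped with each other. In the knockout-labelled libraries Coq7, at 16.9 ± 2.96, was level with Coq6 at 16.6 ± 2.68 CPM per kilobase, and Pdss2, at 1.36 ± 0.185, was below Pdss1 at 2.09 ± 0.0995. With the longest transcript as the length, Coq10b and Coq7 moved up to 38.5 and 31.8 CPM per kilobase in the heterozygous-labelled libraries, and Pdss2, at 4.93, ranked below Pdss1, at 6.03. The longest transcript has 1 exon in Coq10b and 2 exons in Coq7 and Pdss1, against 8 in Pdss2. Whether it is the main form in this tissue is not known. Order among these 4 genes and their neighbours thus depends on the length used, which cannot be settled from counts per gene.

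**Figure D3:**
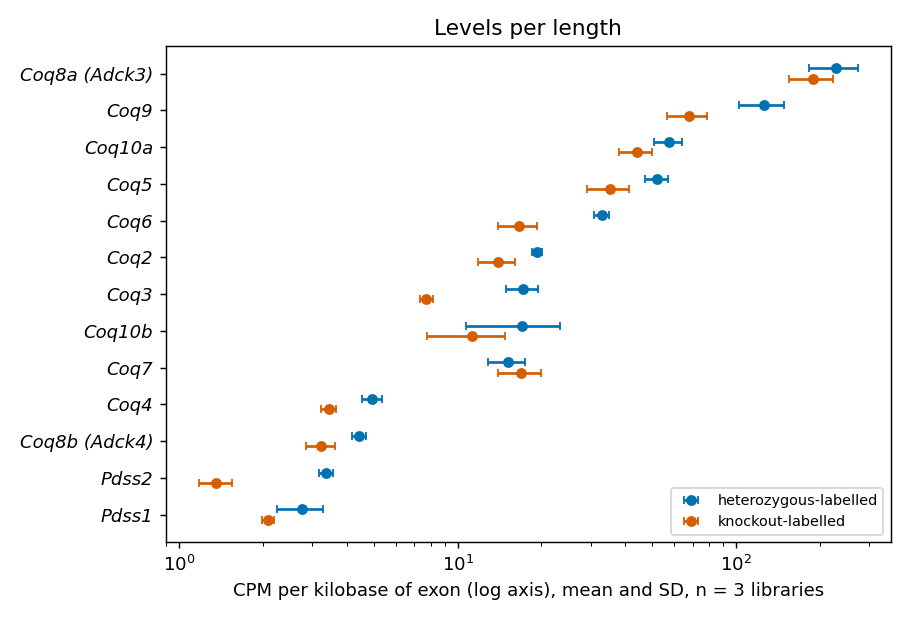
Mean and SD of the level per kilobase of exon (log axis) for the 10 genes and the 3 related genes Coq8a, Coq8b and Coq10a, 3 libraries per group. The levels run from 2.77 for Pdss1 to 228 for Coq8a in the heterozygous-labelled libraries, and the knockout-labelled mean is the higher one for Coq7 alone.

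Promoters of the 3 genes that fell are shown with those of Coq9 and Coq7, the pair whose read ratio is given above. The sequences are RefSeq's for GRCm38.p6, each from 250 bases before to 50 bases after a start site, 5′ to 3′ on the gene's strand. Capitals mark matches to 1 of 5 motifs searched on both strands. These were NRF1 (its GC-rich palindrome), the estrogen-related receptors (TNAAGGTCA), the core of YY1 (AAGATGG), the cyclic AMP response element (TGACGTCA) and an ETS family core (CCGGAAG, which reads CTTCCGG on the other strand). Pdss2 is at chr10:43221236-43221535 (+), Coq3 at chr4:21879396-21879695 (+), Coq6 at chr12:84361718-84362017 (+), Coq9 at chr8:94838163-94838462 (+) and Coq7 at chr7:118533307-118533606 (-).
Pdss2: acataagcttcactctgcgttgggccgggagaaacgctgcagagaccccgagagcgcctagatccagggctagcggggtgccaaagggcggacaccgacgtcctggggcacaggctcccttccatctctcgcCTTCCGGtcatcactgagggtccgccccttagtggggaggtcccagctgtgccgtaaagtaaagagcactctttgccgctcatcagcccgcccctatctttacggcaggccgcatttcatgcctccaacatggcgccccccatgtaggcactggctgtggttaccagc
Coq3: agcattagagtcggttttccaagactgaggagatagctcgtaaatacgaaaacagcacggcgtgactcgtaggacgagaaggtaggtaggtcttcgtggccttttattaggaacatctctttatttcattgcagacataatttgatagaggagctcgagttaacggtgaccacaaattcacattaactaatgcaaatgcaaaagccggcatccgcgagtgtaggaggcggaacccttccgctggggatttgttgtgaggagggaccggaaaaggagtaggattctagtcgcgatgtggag
Coq6: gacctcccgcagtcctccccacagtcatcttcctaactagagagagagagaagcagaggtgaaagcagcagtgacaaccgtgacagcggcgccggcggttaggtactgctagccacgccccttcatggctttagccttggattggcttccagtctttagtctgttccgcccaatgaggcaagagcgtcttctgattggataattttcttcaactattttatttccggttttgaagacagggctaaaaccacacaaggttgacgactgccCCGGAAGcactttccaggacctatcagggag
Coq9: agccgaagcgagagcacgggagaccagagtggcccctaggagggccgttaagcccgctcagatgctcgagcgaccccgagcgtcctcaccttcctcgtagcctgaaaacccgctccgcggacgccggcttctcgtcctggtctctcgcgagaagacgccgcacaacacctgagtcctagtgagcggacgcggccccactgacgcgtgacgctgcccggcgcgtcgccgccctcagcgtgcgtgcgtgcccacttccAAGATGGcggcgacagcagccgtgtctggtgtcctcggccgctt
Coq7: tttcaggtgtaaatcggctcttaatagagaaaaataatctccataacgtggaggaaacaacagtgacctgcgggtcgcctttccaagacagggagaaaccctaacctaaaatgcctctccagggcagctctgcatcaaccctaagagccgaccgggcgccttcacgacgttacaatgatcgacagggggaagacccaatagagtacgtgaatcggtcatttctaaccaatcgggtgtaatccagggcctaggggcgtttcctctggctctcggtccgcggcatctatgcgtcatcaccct

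Promoters were found for 9 of the 10 genes, Coq5 being the one unmatched. The ETS core was in 3 of the 9 (Pdss1, Pdss2 and Coq6), against 8.86% of 32851 promoters of the same length. In Pdss2 it lies from -118 to -112 and in Coq6 from 19 to 25, counted from the start site as 0. That site is the RefSeq one nearest to the gene's annotated 5′ end. It lay 311 bases from that end in Coq6, 884 in Coq2, 92 in Coq9 and 27 in Coq3, and at it in the other members. Coq3 had 2 promoters, of which only the nearer was searched. The YY1 core was in 1 of the 9, Coq9, from 6 to 12, against 6.34% of all promoters. The NRF1, estrogen-related receptor and cyclic AMP motifs were in none of the 9 and in 4.60%, 1.28% and 1.79% of all promoters, and Coq3 and Coq7 held no match to any of the 5. The windows of Coq3 and Coq7 were 47.3% and 52.0% G and C, that of Coq9 68.3%, and the median of all promoters 52.7%. A match to these letters is a description of the sequence and no evidence of binding.

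Around these 10 stand other genes of ubiquinone handling. Of 15 such genes, all tested, none passed by edgeR; at an unadjusted p below 0.05, 5 were lower and 1 higher, where 8.04% of all genes were lower and 4.05% higher. By DESeq2 2 of the 15 passed, where 4.44% of all its tested genes were called lower and 0.815% higher. Their median log2 fold change was -0.27. Coq8a, listed as Adck3, an atypical kinase-like ATPase that supports the synthesis complex, was the most abundant of all at 1081, 1058 and 1480 CPM in heterozygous 1 to 3 and 866, 931 and 1202 CPM in knockout 1 to 3. Its groups overlapped (log2 -0.27, SE 0.206, edgeR adjusted p = 0.742). Coq8b (Adck4), its paralog, had a log2 fold change of -0.45 (edgeR adjusted p = 0.232) and Coq10a, the paralog of Coq10b, one of -0.38 (edgeR adjusted p = 0.364), both without overlap of the groups.

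Fdxr, the ferredoxin reductase in the electron supply of Coq6, stood at 11.7, 12.4 and 12.6 CPM in heterozygous 1 to 3 and at 5.56, 7.41 and 6.41 CPM in knockout 1 to 3. Its groups were well apart, but it narrowly missed the threshold (log2 -0.92, SE 0.175, edgeR adjusted p = 0.0736). It passed with the title prefix as a covariate (edgeR adjusted p = 0.0366), by DESeq2 (adjusted p = 0.000652) and by limma-voom (adjusted p = 0.0439), and not among RF titles alone (edgeR adjusted p = 0.151). The same electron route runs through Fdx1l, the mitochondrial ferredoxin now named Fdx2, which had only 9 to 17 reads per library and overlapped between the groups (log2 -0.04). Stard7, a lipid carrier that also moves ubiquinone out of mitochondria, had a log2 fold change of -0.72 (edgeR adjusted p = 0.0789, and 0.0451 with the prefix). It passed by DESeq2 (adjusted p = 0.00332), and not among RF titles alone (edgeR adjusted p = 0.159) or by limma-voom (adjusted p = 0.0792). The protease gene Oma1 had a log2 fold change of -0.52 (edgeR adjusted p = 0.218). Stard7 and Oma1 did not overlap between the groups.

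**Figure D4:**
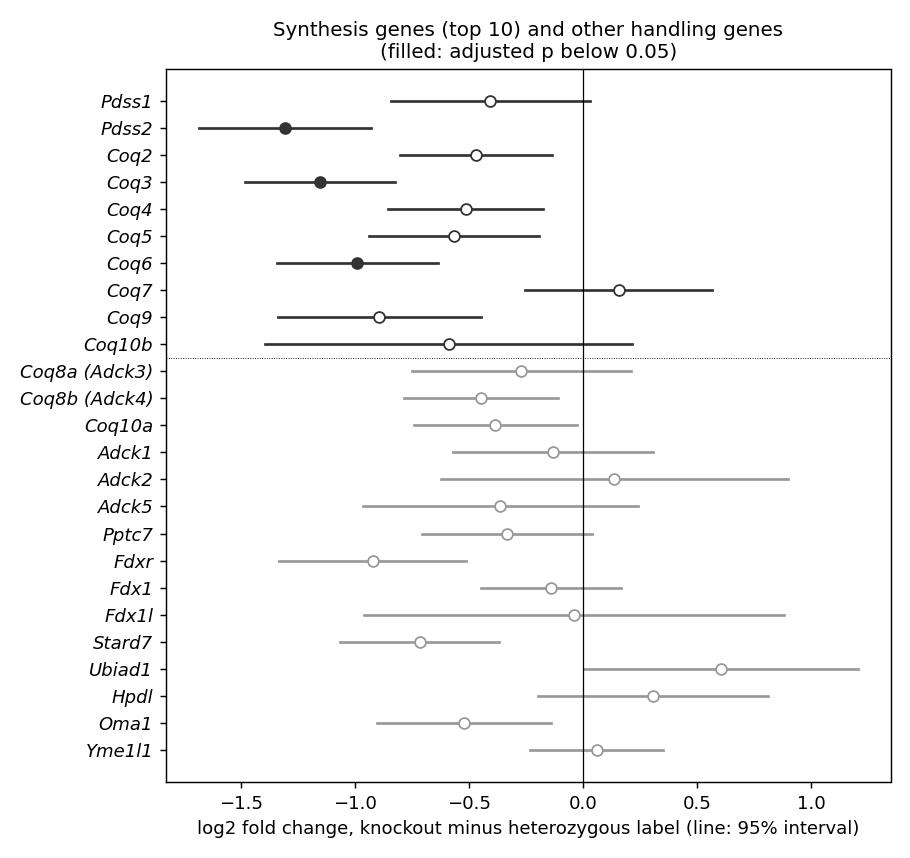
Log2 fold change (knockout-labelled minus heterozygous-labelled) with its 95% interval for the 10 synthesis genes and 15 other genes of ubiquinone handling, with filled points for an adjusted p below 0.05. Pdss2, Coq3 and Coq6 are filled, Coq9 and Fdxr lie near -0.9 unfilled, and Coq7 is the one synthesis gene right of 0.

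Upstream of the tail lies the mevalonate pathway. Of its 9 tested genes none passed by edgeR, and the median log2 fold change was 0.10. At an unadjusted p below 0.05, 1 was higher and none lower, against 4.05% higher and 8.04% lower over all genes tested. By DESeq2 1 of the 9 passed, where 4.44% of all its tested genes were called lower and 0.815% higher. Mvd, which makes isopentenyl diphosphate, stood at 10.03, 8.37 and 10.01 CPM in heterozygous 1 to 3 and at 20.8, 14.2 and 26.1 CPM in knockout 1 to 3, without overlap (log2 1.10, SE 0.239, edgeR adjusted p = 0.0805, and 0.0368 with the prefix). It passed by DESeq2 (adjusted p = 0.00187), and not among RF titles alone (edgeR adjusted p = 0.181) or by limma-voom (adjusted p = 0.0921). Pmvk (0.78, edgeR adjusted p = 0.582) and Fdps, which makes the farnesyl diphosphate that primes the tail (0.38, edgeR adjusted p = 0.891), overlapped between the groups. Whether the synthesis genes and this pathway differ as groups was not tested.

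Downstream, 20 of 21 genes for enzymes that reduce or oxidise ubiquinone, or feed electrons to them, were tested. Of these 20, 2 fell and none rose, and 9 were lower and none higher at an unadjusted p below 0.05; over all genes tested 0.534% fell, and 8.04% were lower and 4.05% higher at that unadjusted p. The median log2 fold change was -0.33. Those that fell were Etfdh, the ubiquinone reductase that drains electrons from acyl-CoA dehydrogenases (log2 -1.50, edgeR adjusted p = 0.0185), and Chdh, the choline dehydrogenase (-1.79, edgeR adjusted p = 0.0417). Chdh did not pass among RF titles alone (-1.45, edgeR adjusted p = 0.0522), and both calls were lost without heterozygous 2, heterozygous 3, knockout 1 or knockout 2. Sdha, the flavoprotein of succinate dehydrogenase, went from a mean of 2989 ± 369 to 1467 ± 185 CPM (SD, n = 3 each) without passing (log2 -1.03, edgeR adjusted p = 0.0631). It passed with the title prefix as a covariate (edgeR adjusted p = 0.0272), among RF titles alone (edgeR adjusted p = 0.0305), by DESeq2 (adjusted p = 2.68e-06) and by limma-voom (adjusted p = 0.011). The other subunits Sdhb, Sdhc and Sdhd had log2 fold changes of -0.28, -0.24 and -0.04. Etfa (-1.01, edgeR adjusted p = 0.0736) and Sqrdl, the sulfide:quinone oxidoreductase (-0.78, edgeR adjusted p = 0.0795), were lower without overlap, while Etfb, the partner of Etfa, was at 0.04 with overlap. With the prefix Etfa (edgeR adjusted p = 0.0147) and Sqrdl (edgeR adjusted p = 0.0194) passed too. Both passed by DESeq2 (adjusted p = 0.000107 for Etfa and 0.00378 for Sqrdl) and by limma-voom (adjusted p = 0.0262 and 0.0412). Among RF titles alone neither Etfa (edgeR adjusted p = 0.0653) nor Sqrdl (edgeR adjusted p = 0.0736) passed. Neither passed in any fit with 1 library left out (edgeR adjusted p from 0.0731 to 0.278).

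Muscle transcripts moved with the label, and the 10 genes can be read beside them. Heterozygous 1 had the lowest summed muscle level of its group, 12116 CPM against 27534 and 35639. With the heterozygous-labelled libraries sorted by rising sum, 2 of the 10 genes were successively higher, Coq2 (48.5, 50.3 and 52.9 CPM) and Coq9 (339, 345 and 466 CPM). Another 2 were successively lower, Pdss2 (21.3, 19.9 and 19.1 CPM) and Coq10b (100.3, 97.7 and 47.0 CPM). The other 6 did neither, and 3 libraries allow no test of such an order. The highest sum was that of heterozygous 3, the RE-titled library of its group, so muscle level and title prefix cannot be told apart there. In the knockout-labelled libraries sorted the same way (knockout 3, 2 and 1), Coq9 was successively lower (241, 207 and 173 CPM). Coq2 (42.6, 32.1 and 35.0 CPM), Pdss2 (9.37, 7.26 and 7.75 CPM) and Coq10b (36.9, 71.0 and 54.9 CPM) followed no steady order in that group. With a muscle score (the mean log2 CPM of the 26 genes) as a covariate, the log2 fold changes were -0.16 for Pdss1 (-0.41 without the score), -1.53 for Pdss2, -0.41 for Coq2, -1.11 for Coq3, -0.44 for Coq4, -0.64 for Coq5, -1.27 for Coq6, 0.14 for Coq7, -0.71 for Coq9 and -1.31 for Coq10b (-0.59 without the score). Coq10b and Pdss1 were the 2 that moved by over 1.5 times. None of the 13300 genes passed in that fit (edgeR adjusted p = 0.99986 for each of the 10), and 260 of them, 3 of the 10 among them, had an unadjusted p below 0.05. It has 1 term more for the same 6 libraries, and the part of muscle tissue in these differences cannot be told apart from the label.

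**Figure D5:**
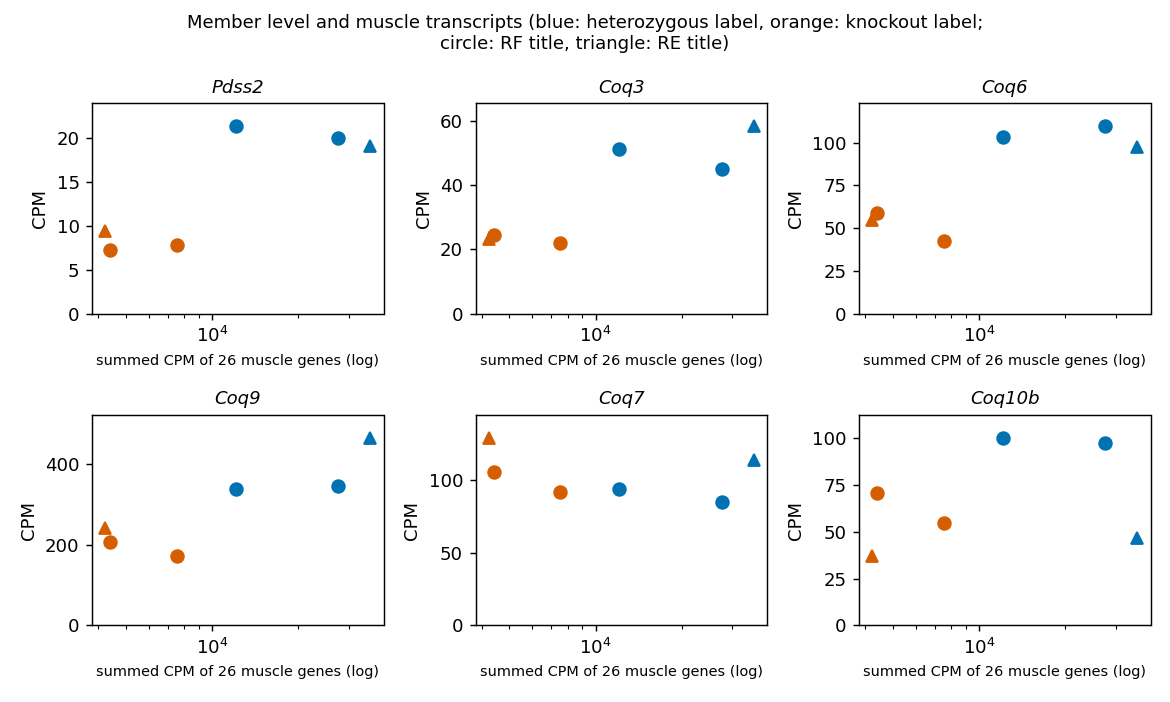
CPM of 6 of the genes (y axes from 0) against the summed CPM of 26 skeletal muscle genes (log axis) in each library. Among the heterozygous-labelled libraries, where the muscle sum runs from 12116 to 35639, Coq9 goes from 339 to 466 CPM and Pdss2 from 21.3 to 19.1. Among the knockout-labelled ones, where it runs from 4244 to 7522, Coq9 goes from 241 to 173 CPM and Pdss2 from 9.37 to 7.75. The muscle sums of the groups do not overlap.

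In the annotation, exons of 5 members share bases with genes of the opposite strand. Coq4 does so with Trub2 (921 bases), and Pdss1 with Abi1 (194 bases) and A130006I12Rik (207 bases). The others are Coq6 with Fam161b (128 bases), Coq9 with Ciapin1 (38 bases) and Coq10b with E330011M16Rik (343 bases). Reads there can be set aside or credited to either gene, since it is not known whether the counting used strand. On its own strand Pdss2 shares 33 bases with Gm47856, which the count table does not list. The log2 fold changes of the 4 partners in the table, chosen for their position, were -0.42 for Trub2, -0.01 for Abi1, 0.31 for Fam161b and 0.43 for Ciapin1, none past the threshold.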

How the data were processed

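RNA from frozen, pulverised brown fat of separate mice was sequenced, per the labels. The authors deposited raw read counts per gene symbol, with a column for each library, matched here to samples by title. The submitters' processing notes list mm10 as the build and, with no roles, HTSeq, STAR 2.7.2b, Bowtie2 2.3.4.3, SAMtools 1.9, Trim Galore and edgeR. The annotation used for counting and its strand setting are unknown. Left out were the 5 closing lines that name no gene, which held all but 43.9% to 48.4% of heterozygous-labelled and 51.0% to 58.3% of knockout-labelled reads. No library repeats another of its group: chi-square over genes was at least 33.3 for each degree of freedom.

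The genotype labels were compared in edgeR 4.0.16 (R 4.3.3), with TMM scaling, filterByExpr (minimum count 10, minimum total 15), robust quasi-likelihood F test, Benjamini-Hochberg over all tested genes at 0.05. The biological coefficient of variation was 24.7%. Ratios in the RE pair had 0.5 CPM added. The fit was also run on simulated counts that held no muscle or title prefix difference, so that run does not cover such differences. The members and lists were chosen with earlier results of these data known. Named were all 10 members, Coq8a, Coq8b and Coq10a, and in each pathway list every called gene and the 3 next by p; Fam195a and Ucp1 served as checks of the labels, and Etfb, Sdhb, Sdhc, Sdhd and Fdx1l were added afterwards as partners of named genes. Alternatives covered scaling (RLE, none, muscle genes left out of library sizes), the filter, single libraries left out, RF titles only, covariates (title prefix, muscle score), the threshold, non-robust estimation, DESeq2 1.42.0 and limma-voom (limma 3.58.1). Positions and lengths are those of GENCODE M21 on GRCm38, the assembly of mm10, where 22711 symbols matched directly, 933 through 1 older symbol and 418 did not.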

Additional observations from a re-analysis of the deposited data

Results flagged for a closer look

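Reads that matched more than 1 gene and were set aside as ambiguous, which no comparison uses, were more frequent in the knockout-labelled libraries: 0.441% of the column total on average (0.375% to 0.5004%), against 0.340% (0.326% to 0.354%) in the heterozygous-labelled ones. They are given because all 3 libraries of the former group lie above the latter. Other shares of the column total also differed without overlap, and by wider margins. Reads without a unique alignment and reads in no gene were less frequent in the knockout-labelled libraries. Reads counted in genes were more frequent there, at 51.0% to 58.3% against 43.9% to 48.4%. Ambiguous reads were not set against the reads counted in genes. The bearing of ambiguous reads on the members that overlap other genes was not tested.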

How the results depend on the processing

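Across 17 alternative fits no member changed direction, and the median log2 fold change of the 10 stayed between -0.77 (without knockout 2) and -0.53 (without knockout 1). Single libraries left out gave 0 to 3 member calls, 0 to 2 calls among the genes of enzymes that use ubiquinone and 0 to 400 calls over all genes; the high of 400 was without heterozygous 1. The count of 8 genes without overlap was checked under alternatives chosen after seeing the data. It was 8 with RLE scaling, with library size only and with muscle genes left out of library sizes. Leaving libraries out cannot lower this count, so the 8 or 9 found in those settings, RF titles alone included, is no check of it. With the muscle score, 0 members, 0 users of ubiquinone and 0 of all genes passed by edgeR (260 at an unadjusted p below 0.05), against 3, 2 and 78 without it. The cause was not tested. Counts over all genes were 311 with the title prefix, 132 among RF titles, 755 by DESeq2, 194 by limma-voom and 500 at an adjusted p of 0.1. Users of ubiquinone gave 6, 9, 6 and 8 calls with the prefix, by DESeq2, by limma-voom and at 0.1, other handling genes 2, 2, 1 and 2, and isoprenoid supply 1 with the prefix, 1 by DESeq2 and 1 at 0.1. The users' median was -0.50 among RF titles, -0.52 by limma-voom and -0.50 with the muscle score, where that of the other handling genes was -0.37. Single libraries left out moved the users' median between -0.56 and -0.27.

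Some values changed sign. Fdps went from 0.38 to -0.22 with the muscle score. Without single libraries Fam195a ran from -0.29 to 0.033, Ucp1 from -0.54 to 0.19, the log2 difference of Coq10b over Coq10a from -0.62 to 0.12 and that of Coq8b over Coq8a from -0.32 to 0.018. No paired analysis was possible because the numbers in the titles are not shared between the groups. The members with the fewest reads were Pdss2 (173 to 413 per library), Pdss1 (186 to 309) and Coq4 (247 to 397).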
